A study of Rattus norvegicus with 192 samples.

Results

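A set of 7 genes of drug metabolism outside the large P450 and conjugation families was looked for by symbol among 22253 probes with 21143 symbols, and 5 of the 7 had a probe, 1 each. These were Ephx1, Por, Alas1, Aldh1a1 and Akr1c1, all of which passed the filter on low counts. Ces2c and Aldh1a7 had no probe under those symbols and were not analysed here.

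Oxidation by a cytochrome P450 in the liver needs support of 2 kinds: heme, which sits in the active site, and electrons, which are carried from NADPH. Alas1 encodes the first and rate-limiting enzyme of heme synthesis in the liver, and Por encodes the reductase of the endoplasmic reticulum that passes electrons to the P450s. The other members act on reactive groups that oxidation leaves behind. Ephx1, microsomal epoxide hydrolase, adds water to epoxides, Aldh1a1 oxidises aldehydes such as retinal to acids, and Akr1c1, an aldo-keto reductase, uses NADPH to reduce aldehydes and ketones of drugs and steroids. Ephx1, Por and Alas1 are known in rodent liver as genes that drugs such as phenobarbital induce.

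Transcripts of cultured primary hepatocytes from male rats were counted by TempO-Seq, a targeted assay in which neighbouring detector oligonucleotides are ligated on a transcript and amplified. The libraries covered 29 chemicals at 6 doses with 1 library per dose, 9 reference chemicals with 1 library each, and 9 libraries of the solvent, DMSO. All wells held 0.1% DMSO for 24 h, and dosing went up to 100 µM with 16 chemicals and up to 33.3 µM with the other 13. The strain and age of the rats are not given in the sources used here, nor is it said that the wells are independent cultures or animals. All p-values therefore refer to the spread among these libraries, which may be technical. Every comparison below shares the same DMSO libraries. By their well names the DMSO libraries of each plate lay side by side, so treatment and well position cannot be told apart.

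Library totals ran from 582071 to 11249014 counts with a median of 5745085. DMSO replicate 1 stood apart: its log2 CPM (counts scaled by the library total) correlated with those of the other 8 DMSO libraries at 0.740 to 0.845, while those 8 correlated at 0.920 to 0.986 with each other, and it was kept out of the controls. DMSO means and ranges are therefore those of replicates 2 to 9. DMSO replicate 1 held 191.4 CPM of Ephx1, 140 of Por, 22.9 of Alas1, 708 of Aldh1a1 and 21.6 of Akr1c1. DMSO replicate 5 lay at -2.57 SD on the first principal component of the libraries without DMSO replicate 1, where the other 7 controls lay between -0.40 and 1.09. The summed CPM of 9 hepatocyte markers, among them Alb, Apoa1 and Cps1, was 28632 to 49681 in DMSO and 14520 to 50004 in treated libraries, of which 44 lay under the DMSO range. Markers of other cells were low in comparison. The sums in treated libraries ran up to 29.1 CPM for 6 endothelial genes (9.39 to 17.74 in DMSO) and 41.2 for 6 stellate genes (4.01 to 7.5). They ran up to 127 CPM for 5 bile duct genes (15.99 to 29.23 in DMSO) and 150.0 for 7 macrophage genes (44.49 to 80.65). Of these genes 4, 2, 1 and 5 passed the filter on low counts, in that order. In libraries of whole wells, fewer cells of a type and less RNA per cell cannot be told apart.

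In a test of each gene's trend over the doses of each chemical, 11 of 145 combinations of gene and chemical rose and 11 fell. Over all probes and chemicals 0.95% rose and 0.713% fell. Ephx1 rose with 9 of 29 chemicals and Por with 2, Akr1c1 fell with 9 and Aldh1a1 with 2, and Alas1 passed the test with none. The size of a trend is given as the fitted log2 change at 33.3 µM against DMSO, with its SE. For each chemical apart, p-values were adjusted over the 11055 probes tested. The unadjusted p needed for a call thus differs between chemicals, as 0.109% of probes were called with PFOS and 13.0% with dithiopyr. Counts of calls do not share 1 bar. The median fitted change over the chemicals was 0.21 for Ephx1, 0.31 for Por, 0.28 for Alas1, -0.19 for Aldh1a1 and -0.88 for Akr1c1, against -0.01 for all probes. The map of fitted trends shows the rises of Ephx1 and the falls of Akr1c1 side by side.

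**Figure D1:**
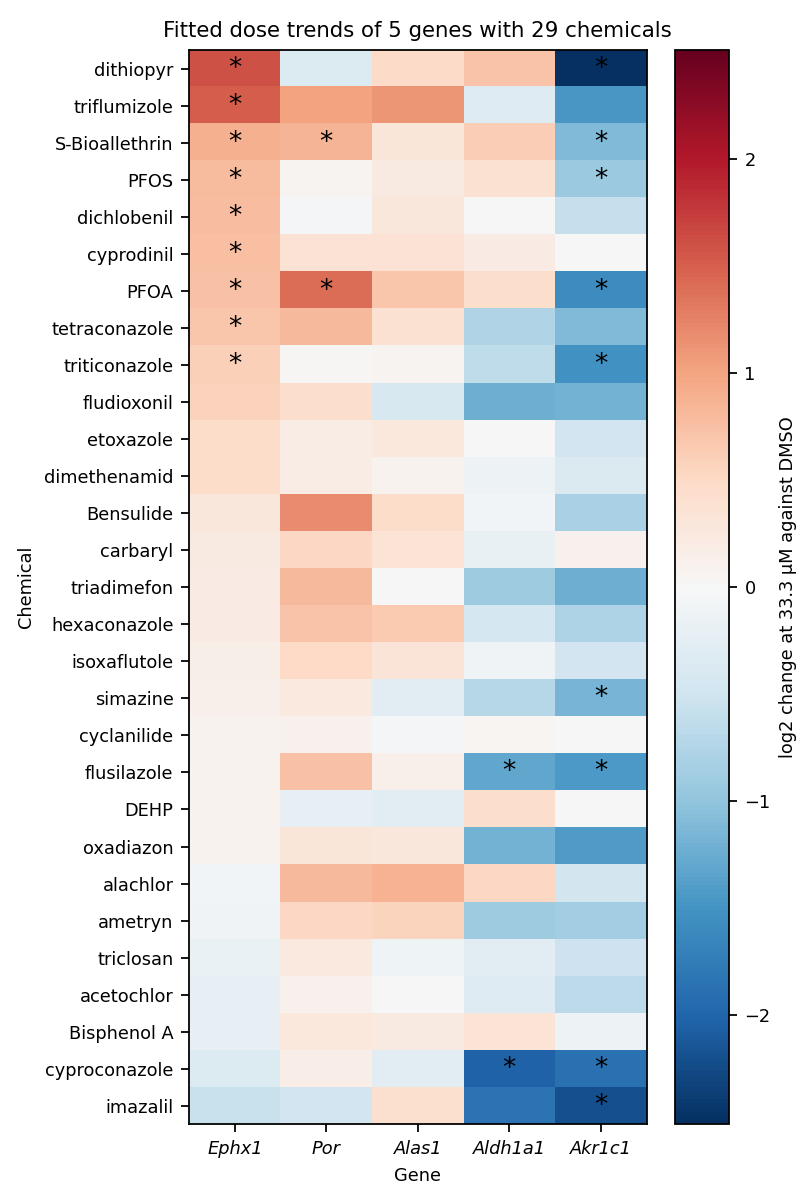
Fitted log2 change at 33.3 µM against DMSO (colour) for 5 genes (columns) with 29 chemicals (rows, ordered by Ephx1), where an asterisk marks an adjusted p under 0.05. Ephx1 carries 9 asterisks, all red, and Akr1c1 carries 9, all blue, while Alas1 carries none.

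Most of these calls depended on the absence of DMSO replicate 1. With it among the controls 2 trends rose and 1 fell: Ephx1 and Akr1c1 with dithiopyr and Por with PFOA, all among the 22. Leaving out DMSO replicate 5 as well, chosen after seeing the data, gave 24 rises and 14 falls, which held all 22. The shares of all probes called in these fits are not given here.

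Ephx1 had 895 ± 74.0 CPM in DMSO (SD, n = 8), from 791 to 1056 with a median of 885. RefSeq (build GRCr8) lists 2 start sites of the gene, both on the minus strand of chromosome 13, and the 250 bases before each are given because Ephx1 was the member that rose with most chemicals. Capitals mark matches to AGGTCA or AGTTCA (single binding motifs of nuclear receptors such as CAR and PXR), to TGACNNNGC (core of the antioxidant response element bound by NRF2) or to GCGTG (core bound by AhR), searched on both strands.
Ephx1 first start site, chr13:95275853-95276102, minus strand: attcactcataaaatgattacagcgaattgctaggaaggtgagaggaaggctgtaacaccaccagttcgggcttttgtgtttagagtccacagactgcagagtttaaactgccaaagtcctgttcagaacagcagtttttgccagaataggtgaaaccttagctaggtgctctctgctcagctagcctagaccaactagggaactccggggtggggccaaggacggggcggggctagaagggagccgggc
Ephx1 second start site, chr13:95263118-95263367, minus strand: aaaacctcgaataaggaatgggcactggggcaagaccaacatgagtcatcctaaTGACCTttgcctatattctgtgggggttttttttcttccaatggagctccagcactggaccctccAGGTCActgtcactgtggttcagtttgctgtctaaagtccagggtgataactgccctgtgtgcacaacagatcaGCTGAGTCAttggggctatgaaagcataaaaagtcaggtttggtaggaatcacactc
The first window holds none of these letters. The second holds AGGTCA from -131 to -126 and, on the other strand, from -196 to -191, counted back from the start site, and TGACNNNGC on the other strand from -57 to -49. Of 33469 windows of this length 24.3% hold AGGTCA or AGTTCA, 10.1% TGACNNNGC and 25.9% GCGTG. Pairs of AGGTCA or AGTTCA in 1 direction spaced by 3, 4 or 5 bases, or everted by 6, were in none of the windows printed here.

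The highest Ephx1 levels came with dithiopyr, a pyridine herbicide. From the lowest dose to 33.3 µM the 6 libraries held 969.5, 888, 1184, 1125, 1888 and 3409.7 CPM. From 1.2 µM on all lay above the DMSO range, and the highest dose reached 3.81 times the DMSO mean. The fitted change was 1.61 ± 0.18 (adjusted p = 9.36e-05). Triflumizole, an imidazole fungicide, gave 935, 858, 902, 1032, 1845 and 2700.0 CPM over the same doses. Its first 4 libraries were within the DMSO range and the last 2 above it, and the fitted change was 1.53 ± 0.18 (adjusted p = 0.000786).

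Dichlobenil, a nitrile herbicide, gave a graded series of 937, 1091, 1231, 1471, 1682 and 1744 CPM from 0.4 to 100 µM. From 1.2 µM on each library was above the DMSO range, and the fitted change was 0.77 ± 0.09 (adjusted p = 0.000913). The pyrethroid S-Bioallethrin gave 848, 982, 1026, 1086, 1488 and 2038 CPM, a change of 0.89 ± 0.11 (adjusted p = 0.000265). PFOS, a perfluorinated sulfonate, gave 977, 1005, 1064, 1231, 1476 and 2043 CPM, a change of 0.80 ± 0.09 (adjusted p = 0.00127). In all these series the 3 highest doses lay above the DMSO range. Smaller changes that passed were 0.75 ± 0.11 with the fungicide cyprodinil, 0.74 ± 0.12 with PFOA, a perfluorinated carboxylic acid, 0.69 ± 0.14 with tetraconazole and 0.59 ± 0.13 with triticonazole, both triazole fungicides (adjusted p = 0.00513, 0.00513, 0.0352 and 0.03). Triticonazole turned down at the top, from 1726 CPM at 33.3 µM to 1329 CPM at 100 µM.

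The reverse was seen with 2 fungicides at their highest dose. Cyproconazole held Ephx1 between 863 and 1161 CPM up to 33.3 µM and at 281 CPM at 100 µM, and imazalil went from 1231 CPM at 11.1 µM to 307 CPM at 33.3 µM. No trend passed for either, at -0.34 ± 0.33 (adjusted p = 0.558) and -0.56 ± 0.39 (adjusted p = 0.344), the lowest fitted changes of Ephx1. Without the highest dose they had the other sign, at 0.45 (adjusted p = 0.16) and 0.49 (adjusted p = 1). Both of those libraries were under the DMSO range of the hepatocyte marker sum, with 17212 and 14859 CPM, as was dithiopyr at 33.3 µM with 14520 CPM, where Ephx1 was at its highest. The part of these values in the result was not tested. Over all dose libraries of the 29 chemicals 51 (29.3%) lay above the DMSO range of Ephx1 and 12 (6.90%) below it, where all probes gave 11.2% and 11.5%.

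Without the highest dose 6 of the 9 Ephx1 calls were lost, that with dithiopyr among them (1.11, adjusted p = 0.0683), and those with S-Bioallethrin, PFOA and dichlobenil passed. The call with tetraconazole ended without its library at 0.14, 0.4, 1.2, 3.7 or 11.1 µM (0.60 to 0.71, adjusted p from 0.0537 to 0.153), without DMSO replicate 3 (adjusted p = 0.0759), with doses scored by rank (0.146) or with no filter on low counts (0.0551). That with triticonazole ended without its library at 11.1 or 33.3 µM (adjusted p = 0.0562 and 0.0614) or without DMSO replicate 4 or 6 (adjusted p = 0.0847 and 0.0739).

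**Figure D2:**
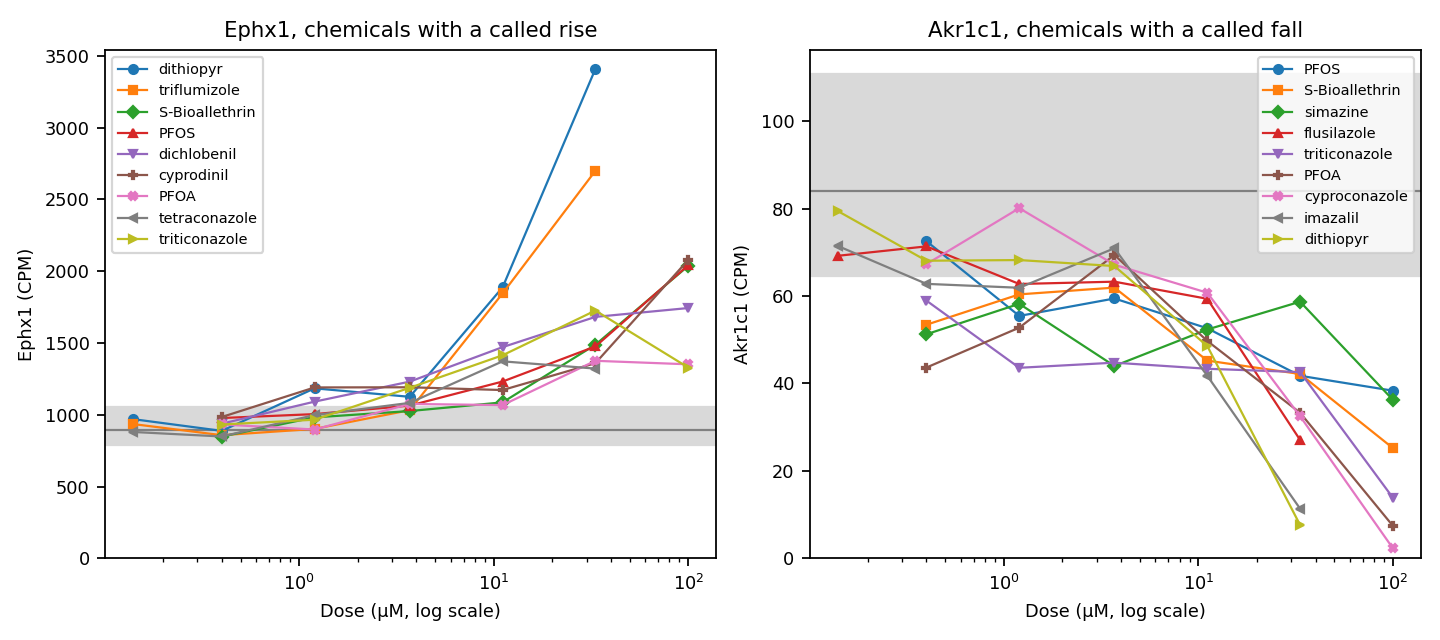
CPM of Ephx1 (left) and Akr1c1 (right) by dose in µM on a log axis, for the chemicals whose trend passed the test, 1 point per library. The grey band is the range of DMSO replicates 2 to 9 and the line their mean. Ephx1 climbs to 3409.7 CPM with dithiopyr, and Akr1c1 goes down to 2.24 CPM with cyproconazole.

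Por had 313 ± 53.0 CPM in DMSO (SD, n = 8), from 265 to 437 with a median of 303, the highest being DMSO replicate 5. Its only listed start site lies on the minus strand of chromosome 12, and the window before it is given because Por was the other member that rose.
Por, chr12:26635810-26636059, minus strand: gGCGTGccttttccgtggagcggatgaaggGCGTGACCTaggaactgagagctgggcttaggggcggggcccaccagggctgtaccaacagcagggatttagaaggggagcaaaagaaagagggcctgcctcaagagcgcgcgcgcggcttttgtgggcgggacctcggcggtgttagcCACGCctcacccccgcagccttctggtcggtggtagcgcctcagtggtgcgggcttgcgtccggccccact
The window holds GCGTG from -249 to -245, from -220 to -216 and, on the other strand, from -71 to -67. AGGTCA lies on the other strand from -217 to -212 and shares 2 letters with the second GCGTG.

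PFOA gave the highest Por level of all libraries. From 0.4 to 100 µM the libraries held 459, 341, 431, 425, 636 and 1207 CPM. The lowest dose was already above the DMSO range, the next 3 fell within it, and the highest reached 3.85 times the DMSO mean. The fitted change was 1.40 ± 0.23 (adjusted p = 0.0052), and 0.76 without the highest dose (adjusted p = 0.182). The PFOA library at 100 µM lay farthest of all libraries on the first principal component, at -5.20 SD, and what that score stands for was not tested. S-Bioallethrin gave a steadier series of 365, 419, 417, 503, 638 and 698 CPM. Its 3 highest doses were above the DMSO range, and the fitted change was 0.85 ± 0.15 (adjusted p = 0.00586).

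Other high Por levels did not pass the test over all doses. Bensulide, an organophosphate herbicide, went from 397 CPM at 11.1 µM to 715 CPM at 33.3 µM, a change of 1.18 ± 0.25 (adjusted p = 0.12), and triflumizole reached 687 CPM at 33.3 µM, a change of 1.01 ± 0.24 (adjusted p = 0.0957). Triadimefon went from 274 CPM at its lowest dose to 691 CPM at 33.3 µM and 431 CPM at 100 µM, a change of 0.82 ± 0.20 (adjusted p = 0.0773). By DESeq2 these 3 passed, with adjusted p of 0.0197, 0.0321 and 0.0153. Without the highest dose Por passed with triadimefon (1.25, adjusted p = 0.00694) and with cyproconazole (1.09, adjusted p = 0.0429). The lowest fitted changes were -0.48 ± 0.54 with imazalil (0.85 without the highest dose, adjusted p = 1), -0.35 ± 0.30 with dithiopyr and -0.21 ± 0.18 with DEHP, a phthalate plasticiser. At the highest dose 12 of 29 chemicals (41.4%) had Por above the DMSO range, against 15.7% of all values of tested probes. Ephx1 was above it with 16 (55.2%), Alas1 with 9 (31.0%) and Aldh1a1 with 5 (17.2%).

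**Figure D3:**
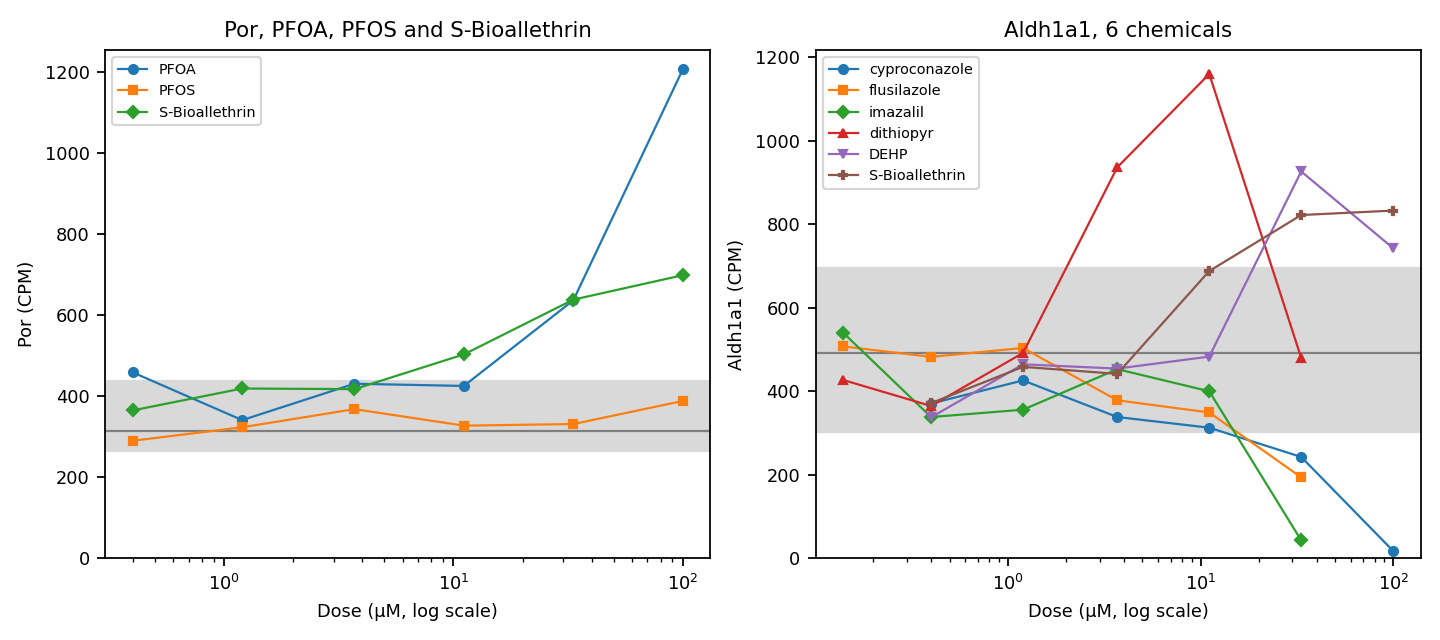
CPM of Por with PFOA, PFOS and S-Bioallethrin (left) and of Aldh1a1 with 6 chemicals (right) by dose in µM on a log axis, 1 point per library. The grey band is the range of DMSO replicates 2 to 9 and the line their mean. Por reaches 1207 CPM with PFOA and 388 CPM with PFOS, and Aldh1a1 reaches 1160 CPM with dithiopyr before it returns to the band.

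Alas1 had 175 ± 37.2 CPM in DMSO (SD, n = 8), from 137 to 251 with a median of 165. None of its 29 trends passed the edgeR test, 4 had an unadjusted p under 0.05, and 1 passed by DESeq2, triflumizole (1.09, adjusted p = 0.0222). The share of all probes at that unadjusted p is not given here. Triflumizole gave 216, 162, 171, 261, 262 and 404 CPM, with the last 3 libraries above the DMSO range, and the fitted change was 1.10 ± 0.26 (adjusted p = 0.0927). Alachlor, a chloroacetamide herbicide, stood at 308 CPM at 33.3 µM against 141 to 183.2 at the lower doses, a change of 0.88 ± 0.28 (adjusted p = 0.101). That library lay at -3.64 SD on the first principal component, whose part in the result was not tested. The change was 0.09 without the highest dose and 0.05 with that component as a covariate. The component was computed with this library included, so the second value cannot separate the dose from the score. The next largest change was 0.69 ± 0.25 with PFOA (adjusted p = 0.129), and the lowest were -0.41 ± 0.26 with fludioxonil, -0.29 ± 0.20 with simazine and -0.28 ± 0.54 with cyproconazole, which was 0.77 without the highest dose (adjusted p = 0.315).

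Some Alas1 series were high at middle doses and low at the top, a shape that a trend over doses does not capture. Imazalil held 163 to 200 CPM up to 3.7 µM, then 414 CPM at 11.1 µM, the highest Alas1 level of all libraries, and 96.5 CPM at 33.3 µM. Cyproconazole gave 175, 235, 344, 314, 281 and 31.3 CPM, with 3 libraries above the DMSO range and the last below it. Tetraconazole was above the range at 1.2, 3.7 and 11.1 µM, with 355, 308 and 307 CPM, and back within it at 33.3 µM, with 206 CPM. Over all treated libraries the Spearman correlation of Alas1 with the first principal component was -0.618, the strongest of the 5 genes, and with the hepatocyte marker sum it was 0.319. These describe libraries that share controls, depth and scaling.

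Aldh1a1 had 491 ± 121 CPM in DMSO (SD, n = 8), from 303 to 694 with a median of 489. Cyproconazole gave 371, 426, 338, 313, 243 and 17.2 CPM from 0.4 to 100 µM. The last 2 libraries were below the DMSO range, and the fitted change was -2.03 ± 0.49 (adjusted p = 0.0203). The call was lost without the highest dose (-1.16, adjusted p = 0.0506) and with doses scored by rank (-1.91, adjusted p = 0.0611). Flusilazole, another triazole fungicide, gave 507, 482, 504, 378, 349 and 194 CPM, with only the last below the range, and the fitted change was -1.31 ± 0.24 (adjusted p = 0.019). That call was lost without DMSO replicate 2 or 3 (adjusted p = 0.0547 and 0.0629), without a plate term (0.0618), with doses scored by rank (0.072), in 1 model of all libraries (0.0808) and without the highest dose (-0.95, adjusted p = 0.991). Imazalil, at 43 CPM at 33.3 µM, had a fitted change of -1.84 ± 0.64 that did not pass (adjusted p = 0.0727).

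Higher Aldh1a1 was seen at middle or upper doses of several chemicals without a trend that passed. Dithiopyr gave 427, 365, 492, 936, 1160 and 480 CPM: the libraries at 3.7 and 11.1 µM were above the DMSO range and the highest dose was within it, a change of 0.72 ± 0.42 (adjusted p = 0.27). DEHP held 337 to 483 CPM up to 11.1 µM, then 926 and 742 CPM, a change of 0.45 ± 0.22 (adjusted p = 0.56). S-Bioallethrin ended at 822 and 833 CPM, a change of 0.63 ± 0.20 (adjusted p = 0.102), and alachlor at 729 CPM, a change of 0.51 ± 0.26 (adjusted p = 0.219), which was -0.07 without the highest dose. Over all treated libraries 17 were above and 17 below the DMSO range (9.29% each), against 11.7% and 11.8% over all probes. Plates differed in DMSO, at 552, 560 and 382 CPM on plates 1, 2 and 3, and against the range of their own plate 108 libraries (59.0%) were below, where all probes gave 29.4%.

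Akr1c1 had 84.0 ± 19.2 CPM in DMSO (SD, n = 8), from 64.5 to 111 with a median of 82.3, and plate means of 106, 87.0 and 66.6 CPM on plates 1, 2 and 3. Plate is a term of every fit. The gene lies in a cluster of related Akr1c genes, whose sequences were not compared here. Its probe may count transcripts of its neighbours, so its identity is uncertain. Of the 29 fitted changes 28 were negative, 21 had an unadjusted p under 0.05 and 9 passed after adjustment. The shares of all probes by sign and by unadjusted p are not given here. The 29 fits share their DMSO libraries, so their signs are not independent. The exception in sign was carbaryl, a carbamate insecticide, at 0.11 ± 0.18 (adjusted p = 0.894).

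The largest fall was with dithiopyr. Its libraries held 79.4, 68.1, 68.2, 66.9, 48.6 and 7.61 CPM, the last 2 below the DMSO range, and the fitted change was -2.51 ± 0.42 (adjusted p = 0.00195), or -1.47 without the highest dose. This call passed in all 17 alternatives. Imazalil gave 71.5, 62.8, 61.9, 70.9, 41.8 and 11.3 CPM, a change of -2.21 ± 0.39 (adjusted p = 0.0108), or -1.36 without the highest dose (adjusted p = 0.776). Cyproconazole gave 67.3, 80.1, 67.2, 60.7, 32.5 and 2.24 CPM, a change of -1.87 ± 0.41 (adjusted p = 0.0148), or -1.13 without the highest dose, where it still passed. Its last library held 3 Akr1c1 counts, 0.0266 of the DMSO mean with a 95% counting interval (exact Poisson) of 0.0055 to 0.0778. In these 3 series the library at the highest dose was also among the 5 lowest of all in the hepatocyte marker sum, and what part that has was not tested.

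The remaining 6 falls were less deep. PFOA gave 43.6, 52.8, 69.4, 49.7, 33.3 and 7.4 CPM, a change of -1.57 ± 0.33 (adjusted p = 0.0186), and triticonazole 58.9, 43.6, 44.7, 43.4, 42.6 and 13.8 CPM, a change of -1.53 ± 0.25 (adjusted p = 0.011). With triticonazole all 6 libraries were below the DMSO range, from the lowest dose on. Flusilazole (-1.44 ± 0.27, adjusted p = 0.0212), the herbicide simazine (-1.18 ± 0.19, adjusted p = 0.0413), S-Bioallethrin (-1.10 ± 0.17, adjusted p = 0.00217) and PFOS (-0.94 ± 0.15, adjusted p = 0.0157) made up the rest. Simazine was below the range in all 6 libraries, from 36.2 to 58.7 CPM, with no clear order over dose, and its 3 highest doses sat on plate 1 and the others on plate 2.

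Single libraries ended several of these calls. Leaving out the library at 1.2, 3.7 or 11.1 µM or DMSO replicate 2 or 3 ended the call with simazine (adjusted p from 0.0562 to 0.172), which also failed without a plate term (-0.77, adjusted p = 0.214). The same held for DMSO replicate 4 or 6 with PFOA (adjusted p = 0.0556 and 0.0584), for the library at 33.3 µM or DMSO replicate 6 with PFOS (0.0866 and 0.0536), and for DMSO replicate 2 or 3 with flusilazole (0.0875 and 0.0747). With doses scored by rank the calls with cyproconazole, imazalil and PFOA were lost (adjusted p = 0.0619, 0.105 and 0.0551), and in 1 model of all libraries those with flusilazole, PFOS and simazine (0.158, 0.0661 and 0.181). Without the highest dose 6 of the 9 were lost, and those with dithiopyr, S-Bioallethrin and cyproconazole stayed.

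Low Akr1c1 was not confined to chemicals with a called trend. Of the treated libraries 106 (57.9%) lay below the DMSO range and 1 above it, against 11.8% and 11.7% over all probes. With DMSO replicate 1, at 21.6 CPM, taken into that range 8 (4.37%) lay below it. Already at the lowest dose 13 of 29 chemicals (44.8%) were below, where all probes gave 9.05%, and at the highest dose 24 (82.8%) were, where all probes gave 17.7%. An offset from DMSO by well position cannot be told apart from these values. DMSO enters each trend as no dose, so a difference already present at the lowest dose adds to the fitted change. Against DMSO of the same plate 148 libraries (80.9%) were below the range, where all probes gave 29.4%, and each plate's range rests on 2 or 3 DMSO libraries. Series that did not pass could still end very low: triadimefon went from 112 to 7.12 CPM (-1.22 ± 0.50, adjusted p = 0.327), oxadiazon from 77.0 to 8.43 CPM (-1.42 ± 0.36, adjusted p = 0.0605) and fludioxonil from 52.8 to 11.8 CPM (-1.18 ± 0.36, adjusted p = 0.314). DEHP, cyprodinil and cyclanilide, with fitted changes of -0.01 each, kept Akr1c1 at 60.8 to 101 CPM at every dose.

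At the last dose step falls and rises were counted for each gene. Akr1c1 dropped under 0.5 times its level at the next lower dose with 10 of 29 chemicals and Aldh1a1 with 7, while Por and Alas1 did so with 3 each and Ephx1 with 2. Over all probes 9.01% of such steps went under 0.5. A step to over 1.5 times was seen with 5 chemicals for Por, 4 for Alas1, 3 for Ephx1, 2 for Aldh1a1 and none for Akr1c1, where all probes gave 12.9%. With 29 steps per gene, the drops of Por, Alas1 and Ephx1 and the rises of all but Akr1c1 lay near these shares. Differences between the genes were not tested. All 5 genes went under 0.5 times in the same step in 2 series, cyproconazole from 33.3 to 100 µM and imazalil from 11.1 to 33.3 µM. In cyproconazole at 33.3 µM Por stood at 701 CPM and Alas1 at 281 CPM, and at 100 µM at 120.1 and 31.3 CPM, in a library of 1340300 counts. In the oxadiazon series Por went from 586 to 257 CPM, Alas1 from 311 to 184 and Akr1c1 from 54.2 to 8.43, and the last library had a hepatocyte marker sum of 18730 CPM. The 3 series plotted were chosen after their values were seen.

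**Figure D4:**
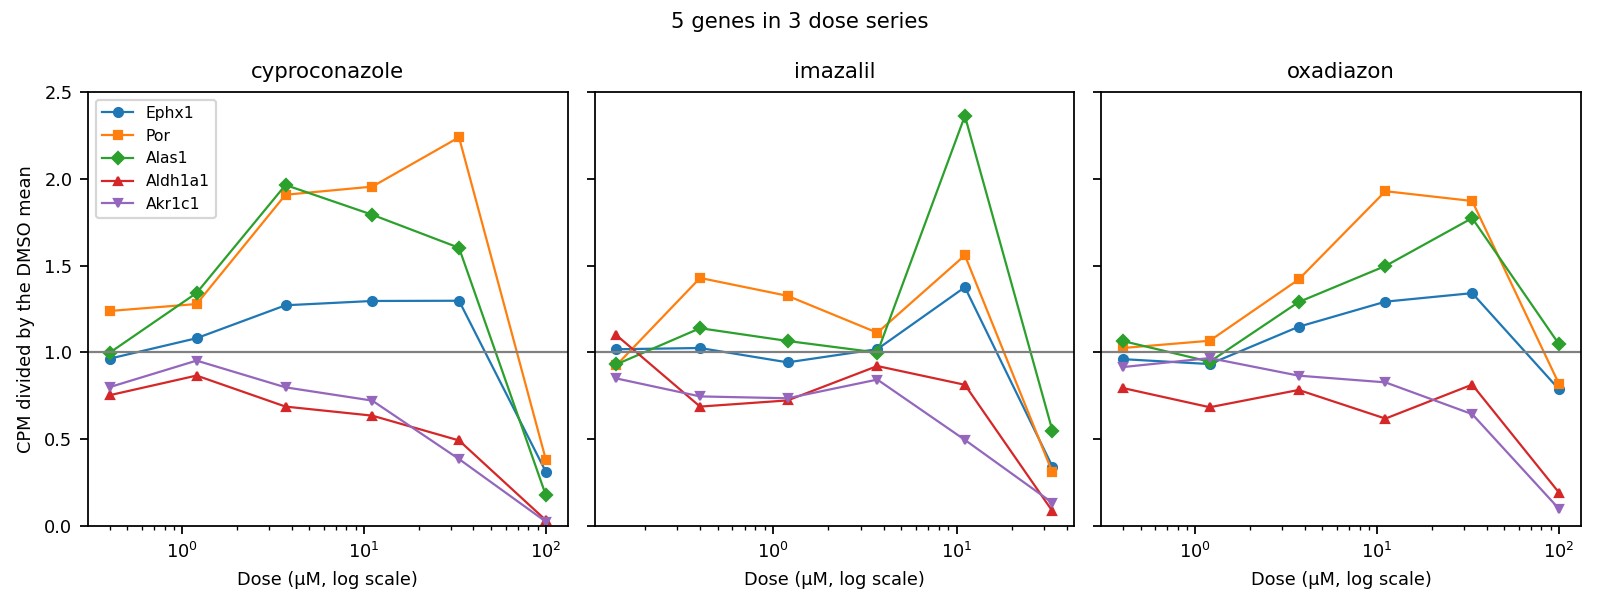
CPM divided by the mean of DMSO replicates 2 to 9 for the 5 genes by dose in µM on a log axis, in the cyproconazole, imazalil and oxadiazon series, 1 point per library. The horizontal line is the DMSO mean. Por and Alas1 stand above the line at middle doses of each series, and all 5 genes drop at the highest dose.

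By chemical, PFOA and S-Bioallethrin had the most called members. With each of them Ephx1 and Por rose and Akr1c1 fell, 3 of the 5, where 3.74% and 2.93% of all probes were called. Dithiopyr, triticonazole and PFOS each had a rise of Ephx1 and a fall of Akr1c1, beside 13.0%, 3.18% and 0.109% of all probes. Cyproconazole and flusilazole had falls of Aldh1a1 and Akr1c1, beside 8.94% and 0.588%. A further 6 chemicals had 1 called member, 4 by a rise of Ephx1 (triflumizole, dichlobenil, cyprodinil and tetraconazole, beside 0.507%, 0.208%, 0.190% and 0.461% of probes) and 2 by a fall of Akr1c1 (imazalil and simazine, beside 10.5% and 0.244%). The other 16 had none.

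At 33.3 µM, a dose that all 29 chemicals share, the order of Ephx1 levels was led by dithiopyr and triflumizole, followed by triticonazole at 1726 CPM, dichlobenil at 1682 and etoxazole at 1522, and imazalil was last at 307 CPM. Of the 28 gaps between neighbours 21 were under 1 SD of DMSO. Por was highest with Bensulide at 715 CPM, then cyproconazole at 701, triadimefon at 691 and triflumizole at 687, which lie within 1 DMSO SD of each other, and lowest with imazalil at 97.2 CPM. Neighbours were also within 1 SD in 26 of 28 gaps for Por and Alas1, 27 for Aldh1a1 and all 28 for Akr1c1, so the order in the middle of each list is not resolved.

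For 8 pairs of related chemicals the slopes at matched doses were compared, 40 differences in all. Adjusted over all probes 1 passed: Por was higher with PFOA than with PFOS. Adjusted over the 8 pairs of each gene 10 passed, 5 of Aldh1a1, 4 of Ephx1 and this one. The share of all probes that pass by that rule is not given here, so the 10 cannot be set against it. The pairs share DMSO libraries, and some share a chemical. PFOA and PFOS differ chiefly in the acid group at the end of a perfluorinated chain, a carboxylic acid in PFOA and a sulfonic acid in PFOS. At 0.4 to 100 µM PFOS held Por at 290, 323, 368, 327, 331 and 388 CPM, all within the DMSO range, beside the PFOA series above that ended at 1207 CPM. The difference of fitted changes was 1.33 ± 0.23 (95% interval 0.85 to 1.82, adjusted p = 0.00211, and 0.000115 adjusted over the 8 pairs). Adjusted over all probes, 1.03% of probes differed in the higher and 0.692% in the lower direction over the 8 pairs. The difference was 0.93 without the highest dose, where it still passed. For Ephx1 the same pair differed by -0.06 (interval -0.30 to 0.18), for Aldh1a1 by -0.02 (-0.57 to 0.54), for Alas1 by 0.33 (-0.18 to 0.83) and for Akr1c1 by -0.52 (-1.10 to 0.05).

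The other 9 passed over the 8 pairs of their gene but not over all probes, and each is given with both adjusted p-values in that order. The imidazole fungicides imazalil and triflumizole differed in Ephx1 by -1.74 ± 0.37 (interval -2.52 to -0.97, adjusted p = 0.00114 and 0.069), with 307 against 2700.0 CPM at 33.3 µM, and in Aldh1a1 by -1.61 ± 0.56 (0.0249 and 0.11). Without the highest dose their separate trends lay closer in Aldh1a1, at -0.43 and -0.11, and were 0.49 and 1.21 in Ephx1. The triazoles cyproconazole and triticonazole differed in Aldh1a1 by -1.34 ± 0.44 (0.0249 and 0.0578), and in Ephx1 by -0.77 ± 0.29 (0.0314 and 0.0913). Without the highest dose their Aldh1a1 difference of -1.12 ± 0.28 passed over all probes (adjusted p = 0.0427). Their Akr1c1 trends differed by 0.04, with an interval of -0.79 to 0.87.

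Among the other triazoles tetraconazole lay above flusilazole in Ephx1 by 0.64 (interval 0.33 to 0.95, adjusted p = 0.0013 and 0.598) and hexaconazole below tetraconazole by -0.51 (interval -0.77 to -0.24, 0.00206 and 0.6). In Aldh1a1 hexaconazole lay above flusilazole by 0.93 ± 0.24 (0.00633 and 0.216) and tetraconazole above flusilazole by 0.65 ± 0.26 (0.0397 and 1). The chloroacetamides alachlor and acetochlor differed most in Aldh1a1, by 0.70 (interval 0.10 to 1.29, adjusted p = 0.0397 and 0.249). The triazines ametryn and simazine differed by at most 0.73 (Alas1, interval 0.10 to 1.37), which passed neither adjustment (0.0836 and 0.612).

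The 9 reference chemicals had 1 library each, which was compared with DMSO on the assumption that it varies as the DMSO libraries do. Of 45 differences 1 rose and 6 fell, where all probes gave 1.31% and 2.34%. Oltipraz, a dithiolethione known to activate NRF2, had 3332 CPM of Ephx1 at 30 µM, a change of 1.74 ± 0.15 (adjusted p = 0.000636), the only rise. Akr1c1 was lower in the libraries of GW4046 (23.1 CPM, -2.01 ± 0.26, adjusted p = 0.0108), pregnenolone-16alpha-carbonitrile (30.1 CPM, -1.66 ± 0.24, adjusted p = 0.0157), oltipraz (31.5 CPM, -1.63 ± 0.25, adjusted p = 0.0132) and sulforaphane (22.3 CPM, -1.55 ± 0.32, adjusted p = 0.00616). Pregnenolone-16alpha-carbonitrile is a PXR agonist in rodents and sulforaphane an NRF2 activator. In the sulforaphane library Aldh1a1 (-4.25 ± 0.47, adjusted p = 0.000301) and Alas1 (-1.61 ± 0.42, adjusted p = 0.0175) were lower as well. It was the shallowest of all, with 582071 counts, of which 13 were Aldh1a1, 13 Akr1c1 and 28 Alas1, and 28.5% of all probes were called in it.

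WY-14643, a PPARα agonist, had the highest Aldh1a1 of all libraries, 1273 CPM, without passing (1.08 ± 0.28, adjusted p = 0.226), but with DMSO replicate 5 left out it passed (1.31 ± 0.20, adjusted p = 0.00469). Ephx1 with GW4046 behaved alike, at 1563 CPM and 0.71 ± 0.16 (adjusted p = 0.0898), or 0.78 ± 0.14 without DMSO replicate 5 (adjusted p = 0.0119), as did Aldh1a1 with pregnenolone-16alpha-carbonitrile, lower by -0.91 ± 0.22 without it (adjusted p = 0.0351). With DMSO replicate 1 added, only Aldh1a1 with sulforaphane still passed. Libraries of 17beta-estradiol, dexamethasone, testosterone and TCPOBOP had no called member, and their Akr1c1 ran from 48.2 CPM with dexamethasone to 103 CPM with testosterone. The libraries of pregnenolone-16alpha-carbonitrile, oltipraz and WY-14643 were among the 8 lowest in the hepatocyte marker sum, at 15576, 16900 and 18922 CPM.

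**Figure D5:**
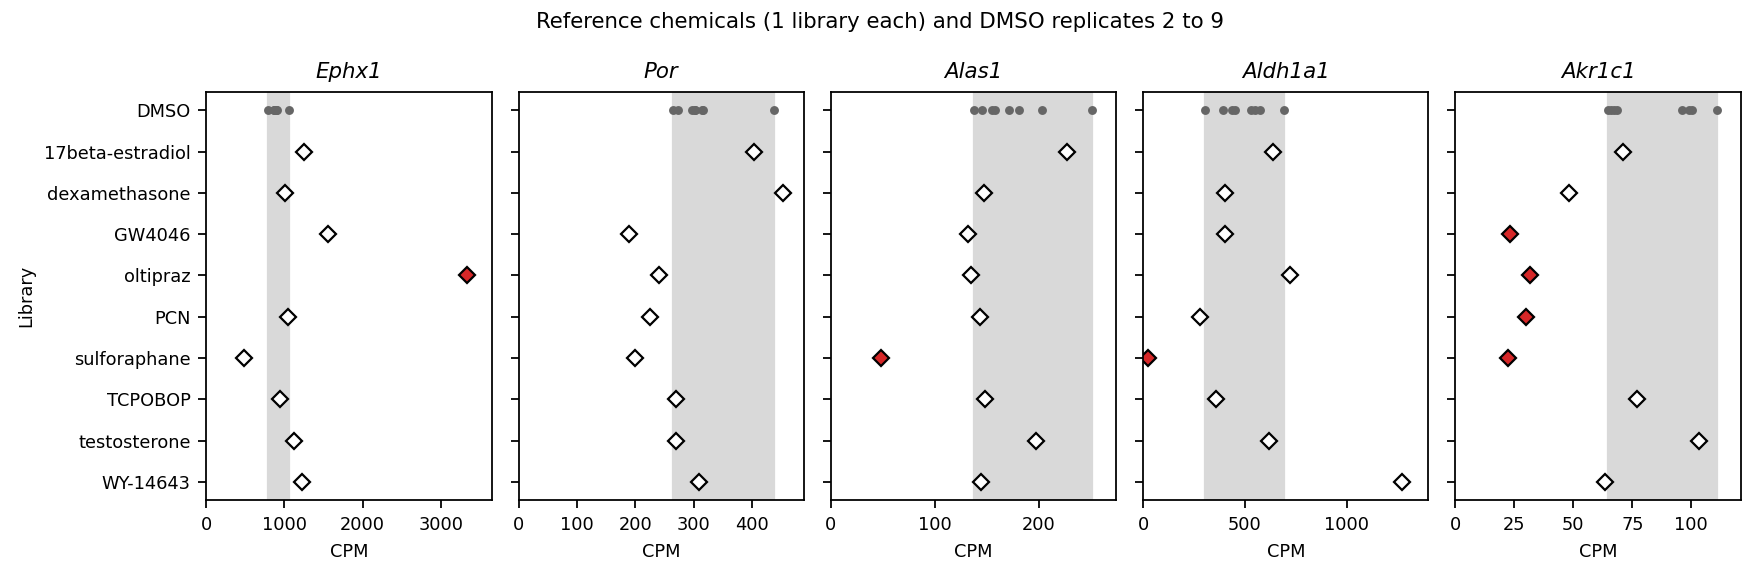
CPM (horizontal axis, from 0) of the 5 genes in DMSO replicates 2 to 9 (grey dots, with their range shaded) and in 1 library of each reference chemical (diamonds, red where the adjusted p is under 0.05). PCN stands for pregnenolone-16alpha-carbonitrile. Ephx1 with oltipraz lies at 3332 CPM, and 4 of 9 Akr1c1 diamonds are red and left of the DMSO range.

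Other genes of the same pathways were taken from lists chosen by function. Their counts by DESeq2 and at an unadjusted p under 0.05 have no share of all probes beside them. Of 13 genes of heme synthesis and breakdown only Hmox1, heme oxygenase, changed: it rose with 6 chemicals, from 1.16 ± 0.29 with PFOA to 1.80 ± 0.33 with simazine. Its 6 rises are 1.59% of the list's 377 trends, whose median of -0.05 lies beside -0.01 for all probes. By edgeR 0 trends of the list fell, 6 were lower at an unadjusted p under 0.05, and by DESeq2 there were 10 rises and 0 falls. Of 7 genes listed around the electron supply of P450s 3 rose, 5 trends of 203 in all (2.46%). Cyb5a, cytochrome b5, rose with tetraconazole (1.08 ± 0.18) and cyprodinil (0.59 ± 0.10). Fdx1, the ferredoxin of mitochondrial P450s, rose with dithiopyr (1.29 ± 0.20) and cyproconazole (0.54 ± 0.14). Pgrmc1, on the list but not itself an electron carrier, rose with dithiopyr (0.75 ± 0.15). By edgeR 0 trends of these genes fell, 6 were lower at an unadjusted p under 0.05, and by DESeq2 there were 12 rises and 1 fall. The only other epoxide hydrolase tested, the soluble enzyme Ephx2, rose with PFOA (1.63 ± 0.33) and S-Bioallethrin (1.14 ± 0.24), with which Ephx1 rose too. Its trends had 0 falls by edgeR, 9 at an unadjusted p under 0.05 and 3 by DESeq2.

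Of 12 esterases 1 trend rose and 7 fell, in 348 (0.287% and 2.01%, median -0.08), and DESeq2 called 2 and 14. Ces2h, a carboxylesterase, rose with S-Bioallethrin (0.72 ± 0.15). Aadac, arylacetamide deacetylase, fell with cyproconazole, dithiopyr (-1.63 ± 0.46) and oxadiazon, Pon1, paraoxonase, with cyproconazole, dithiopyr (-0.85 ± 0.24) and triticonazole, and Ces1f with dithiopyr (-1.23 ± 0.39). Of 12 aldehyde and alcohol dehydrogenases other than Aldh1a1 10 trends of 348 fell (2.87%, median -0.22). Aldh3a2, which oxidises fatty aldehydes, fell with cyproconazole (-1.37 ± 0.33), oxadiazon and triticonazole. Aldh1l2 fell with S-Bioallethrin and triticonazole, and Aldh7a1 with dithiopyr and triticonazole. By edgeR 0 trends of the list rose, 6 were higher at an unadjusted p under 0.05, and by DESeq2 there were 2 rises and 22 falls.

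The 18 other aldo-keto and carbonyl reductases moved both ways, with 23 rises and 12 falls in 522 trends (4.41% and 2.30%, median -0.10), and by DESeq2 with 25 and 32. Akr1b10 rose with 7 chemicals, most with dithiopyr (3.02 ± 0.29) and triflumizole (1.86 ± 0.24). Akr7a3, an aflatoxin aldehyde reductase, rose with 5, most with triflumizole (2.18 ± 0.29), and Akr1b8 with 4, most with dithiopyr (3.06 ± 0.49). Hsd11b1, which reduces cortisone and related 11-keto steroids, fell with 5, most with dithiopyr (-1.36 ± 0.20). Among the related Akr1c genes, singled out after their values were seen, Akr1c14 fell with PFOA (-1.17 ± 0.24) and dithiopyr (-0.50 ± 0.15). Akr1c19 fell with PFOA and Akr1c12 with S-Bioallethrin (-0.61 ± 0.15), while Akr1c13 rose with dithiopyr (1.07 ± 0.29). Dithiopyr thus had a falling Akr1c1 beside rising Akr1b10, Akr1b8 and Akr1c13.

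Genes of P450s and conjugation given only as side values rose in 75 of 319 trends and fell in 1 (23.5% and 0.313%, median 0.46). Cyp2b2, the phenobarbital-type P450, rose with 14 chemicals, the glucuronosyltransferase Ugt2b1 with 13, Cyp3a23/3a1 with 12 and Cyp3a1 with 9. Cyp1a1, Cyp1a2 and the targets of NRF2 that follow were singled out after their values were seen. Dithiopyr raised Cyp2b2 by 4.33 ± 0.97, and triflumizole raised it by 3.65 ± 0.75 and the AhR target Cyp1a1 by 4.39 ± 0.60. Srxn1, a target of NRF2, rose with dithiopyr by 1.95 ± 0.32, and also with cyproconazole, imazalil, simazine, tetraconazole and triticonazole. With triflumizole Gclc (1.54 ± 0.20), Gclm (1.34 ± 0.25) and Nqo1 (2.06 ± 0.31) rose, and Srxn1 was not called. Gclc also rose with tetraconazole, Gclm with dithiopyr, and Nqo1 with dithiopyr and PFOS, while Nqo1 fell with PFOA. The 1 fall among the side values was Cyp1a2 with dithiopyr. Of 174 trends of 6 receptors and partners 1 rose and 3 fell (0.575% and 1.72%, median 0.00), and DESeq2 called 4 and 10. Ahr, the dioxin receptor, rose with imazalil (0.67 ± 0.19). Nr1i2, which encodes PXR, fell with dithiopyr (-1.35 ± 0.24) and imazalil (-0.85 ± 0.26), and Rxra, its partner, with dithiopyr (-0.89 ± 0.18).

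The members did not form 1 pattern. Over all treated libraries the Spearman correlation of CPM was highest between Por and Alas1 at 0.574 and between Ephx1 and Alas1 at 0.450, and lowest between Por and Akr1c1 at -0.325. Among 9874 probes, Ephx1 was most like AABR07021930.1 (0.634), Gsta2 (0.594), a glutathione transferase, and Adsl (0.552). Por was most like Tbx3 (0.760), Pcsk6 (0.701) and Bnip3l (0.688). Alas1 was most like Aco1 (0.702), which encodes aconitase and iron regulatory protein 1, Fitm2 (0.692) and Pgpep1 (0.683). For Aldh1a1 the closest were Eci1 (0.738) and Crot (0.737), both of fatty acid oxidation, and Tmsb10 (0.723). Akr1c1 was closest to Dpys (0.794), which breaks down pyrimidines, followed by a gene model of an altered name (0.706). The libraries share their depth, scaling and controls, so these values describe likeness only.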

How the data were processed

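The authors deposited whole-number counts per probe for 192 libraries. Per the submitters' processing notes Bowtie was the aligner, and its version, the probe sequences and the build are not given in the sources used here. Groups, doses and plates (from well names) were read from the labels, and doses lie about 3-fold apart although the labels name a log2 step. All columns were matched (0 left over).

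Counts were fitted in R 4.3.3 with edgeR 4.0.16 (TMM, quasi-likelihood F test, limma 3.58.1 loaded, plate as a factor) over 11055 probes that reached 1.741 CPM, equal to 10 counts in a library of 5745085, in 6 or more libraries. Per chemical, log2(1 + dose) was tested over its 6 libraries and DMSO replicates 2 to 9. Benjamini-Hochberg adjustment ran over all probes tested in a fit, with a threshold of 0.05. Pairs were contrasts of 2 slopes, and reference libraries were tested by an indicator. For correlations CPM were logged (log2) after adding a prior count of 2. The fit was also run on counts simulated from its own dose model without a plate effect. That run cannot show how the fit handles series that turn at the highest dose. Counts come from amplified ligation products, so counting intervals do not cover amplification.

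Members and lists were chosen with earlier results of these data known. Named were chemicals past the test or among the 3 largest or smallest fitted changes of a member, up to 4 genes called with most chemicals per list, and the 3 most similar probes with a mean count of at least 10. A gene that this rule names is not reported here. Alternatives were DESeq2 1.42.0, its size factors, no filter, no plate term, ranked doses, 1 model of all libraries, the first principal component as a covariate, DMSO replicate 1 added, and leaving out the highest dose, each DMSO library or each treated library.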

Additional observations from a re-analysis of the deposited data

Results flagged for a closer look

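Of 10 groups of DMSO libraries tested for a library far from the rest, 4 held one. Each gene was tested in 8 and in 9 of the same libraries, so the groups overlap. Replicate 1 was also known beforehand to stand apart, so the count cannot be set against chance. Among the 8 libraries used as controls, replicate 2 was the highest in Ephx1 with a gap of 0.574 of the range (1056 CPM, the others up to 904), and replicate 5 the highest in Por with a gap of 0.704 (437 CPM, the others up to 316). Among all 9, replicate 1 was the lowest in Ephx1 with a gap of 0.693 (191.4 CPM) and in Alas1 with a gap of 0.502 (22.9 CPM).

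The difference of the Por trends between PFOA and PFOS, 1.33 on the log2 scale, passed its own test and is given with its interval above.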

How the results depend on the processing

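The 11 rises and 11 falls of the trend test became 2 and 1 with DMSO replicate 1 added, 6 and 3 without the highest dose, 17 and 9 without a plate term, 15 and 17 by DESeq2, 23 and 20 with the first principal component as a covariate, and 24 and 14 without DMSO replicate 5 (added after seeing the data). Ranked doses, 1 model of all libraries, no filter and DESeq2 size factors gave 10 to 16 rises and 8 to 13 falls. Leaving out a DMSO library of the chemical's plate gave 10 to 15 rises and 8 to 13 falls. Shares of all probes are given for the main fit only. Whether a setting called more probes in general is therefore not shown. All 22 calls were among those of DESeq2, of the covariate and of the fit without replicate 5. The rise of reference libraries became 0 with DMSO replicate 1 added, 2 without a plate term, by DESeq2 or without a filter, and 3 without DMSO replicate 5, and the 6 falls became 1 with DMSO replicate 1 added and 6 or 7 otherwise. The rise between related chemicals stayed 1 in every setting run, and the falls went from 0 to 1 without the highest matched dose (Aldh1a1, cyproconazole against triticonazole). No call changed direction in these settings. Without the highest dose 25 of 145 fitted changes had the other sign, none of them called, among them Ephx1 and Alas1 with cyproconazole and Ephx1 and Por with imazalil. In 6 other settings 0 to 11 did so, none called. The causes were not tested. Another probe per gene was not run, since each member has 1. No paired analysis was possible because each dose has 1 library and the DMSO numbers pair nothing. Depth limits the sulforaphane library and cyproconazole at 100 µM most.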
